A study of Mus musculus with 4 samples.

Results

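The 10 genes described here are the 7 elongases of very long chain fatty acids, Elovl1 to Elovl7, and the 3 fatty acid desaturases Fads1, Fads2 and Fads3. They were picked by gene symbol, with earlier results of these data known, and are 10 of the 55450 genes counted in the mouse testis by droplet single-cell RNA sequencing. There were 4 libraries of dissociated testis cells: HFD 1 and HFD 2 came from mice fed a high-fat diet, and ND 1 and ND 2 from mice fed a normal diet. The strain, age, diet composition, feeding time and number of mice behind a library are not given in the sources used here, so p-values measure only the spread between these libraries, which may be technical. The question was how the level of each gene differed between the cell types of the testis and between the diets.

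Mammals make long polyunsaturated fatty acids from linoleic and alpha-linolenic acid of the diet by alternating desaturation and elongation in the endoplasmic reticulum. Fads2 carries out the opening and rate-limiting desaturation, Elovl5 adds the next carbon pair, Fads1 desaturates again to give arachidonic or eicosapentaenoic acid, and Elovl2 lengthens these further towards docosapentaenoic and docosahexaenoic acid. The testis is known for phospholipids rich in docosapentaenoic acid, and Elovl2 and Elovl4 are known to be needed for the longest polyunsaturated chains of germ cells. Elovl6 lengthens palmitate to stearate, and Elovl1, Elovl3 and Elovl7 act mainly on saturated and monounsaturated chains.

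Each library gave 13561 to 15290 cell barcodes and 143748262 to 154221188 UMIs (unique molecular identifiers, each standing for 1 captured RNA molecule), and 13122 to 14468 cells per library were kept. Any pair of libraries shared 42 to 65 barcodes, at most 0.465% of the barcodes of a library. Cells were clustered without the 10 genes, and clusters were named by marker genes, so each class is called by its likeness to a cell type. The Leydig-like class was 1 cluster with its best marker score for Leydig cells, and 2 of the 7 markers, Insl3 and Cyp17a1, were among its 10 leading genes. The 7 markers of this testosterone-producing cell were Star, Cyp11a1, Cyp17a1, Hsd3b1, Hsd3b6, Insl3 and Lhcgr. Their summed level was 16276 to 21149 CPM (UMI counts scaled to the total of the class) in the Leydig-like class and at most 320 CPM in any other class. Sertoli markers stood at 1509 to 1730 CPM in the Leydig-like cells, with the receptor Fshr at 0, against 3250 to 3965 CPM in Sertoli-like cells. The Leydig-like class held 210, 237, 364 and 365 cells in HFD 1, HFD 2, ND 1 and ND 2, which was 1.6%, 1.76%, 2.52% and 2.64% of the kept cells. Of the kept cells, 30.3% to 37.1% per library stayed unnamed, most of them of low depth, and 49 to 64 cells per library were spermatogonia-like, too few for a test.

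On the mouse genome (GRCm38, GENCODE M21), Fads3, Fads2 and Fads1 are neighbours on chromosome 19. Fads3 lies at chr19:10041569-10060110 on the plus strand, Fads2 at chr19:10062765-10101746 on the minus strand and Fads1 at chr19:10182888-10196877 on the plus strand. The starts of Fads1 and Fads2 are 81142 bases apart. Elovl5 lies at chr9:77917364-77984519 and Elovl6 at chr3:129532355-129638495, both on the plus strand, and Elovl2 at chr13:41182381-41220405 on the minus strand. Elovl1 at chr4:118428093-118432953 overlaps Cdc20 on the opposite strand, and Elovl6 overlaps a gene model on each strand (Gm43072 and Gm35986). Whether the counting used strand is not given in the sources used here, so reads of these overlapping genes cannot be told apart.

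The 250 bases before the RefSeq start (GRCm38.p6) are shown for Elovl5, whose level was highest in Leydig-like cells, and for Elovl2, whose level was highest in pachytene-like cells, since these are the elongases of the polyunsaturated pathway with the most UMIs. Elovl2 has 2 start entries in the table, and the window printed is the one farther upstream. The other, chr13:41220163-41220412, held 0 matches to the motifs named next. The promoter table held 8 of the 10 members, not Fads1 or Elovl3. In the printed windows, capitals mark matches, on either strand, to the sterol regulatory element TCACNCCAC, the CCAAT box, the GC box GGGCGG, the NR5A1 site CAAGGTCA, the cyclic AMP response element TGACGTCA, the E-box CACGTG or the MYB site AACTGNC. The Elovl5 window is chr9:77917115-77917364 on the plus strand, and the Elovl2 window is chr13:41220404-41220653 on the minus strand, both printed from the far end to the start.
Elovl5: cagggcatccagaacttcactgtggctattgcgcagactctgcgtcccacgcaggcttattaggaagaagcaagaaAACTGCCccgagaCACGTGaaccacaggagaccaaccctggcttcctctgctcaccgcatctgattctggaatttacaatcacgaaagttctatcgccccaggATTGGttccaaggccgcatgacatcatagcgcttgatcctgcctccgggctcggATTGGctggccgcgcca
Elovl2: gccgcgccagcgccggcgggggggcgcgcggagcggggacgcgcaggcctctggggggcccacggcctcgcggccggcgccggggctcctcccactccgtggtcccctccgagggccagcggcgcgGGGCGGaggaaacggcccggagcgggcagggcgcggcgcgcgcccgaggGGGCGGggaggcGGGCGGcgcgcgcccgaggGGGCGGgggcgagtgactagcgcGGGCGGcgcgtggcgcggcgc
The Elovl5 window held 2 CCAAT boxes, 1 E-box and 1 MYB site, and the Elovl2 window held 5 GC boxes and no other of the 7 motifs. Of 32851 promoters of the same length, 32.7% held a GC box, 33.8% a CCAAT box, 10.6% a MYB site, 6.02% an E-box, 1.55% the cyclic AMP response element, 1.33% the NR5A1 site and 1.05% the sterol regulatory element. Motifs may overlap one another, though none did in these windows, and a match describes letters only.

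Fads2 and Fads1, the desaturases of the polyunsaturated pathway, had their highest levels in Leydig-like cells. Fads2 stood at 1359, 1383, 1650 and 1440 CPM in the Leydig-like cells of HFD 1, HFD 2, ND 1 and ND 2, a mean of 1458 ± 132 (SD, n = 4 libraries). The next class, spermatogonia-like cells, had 31.0 to 78.8 CPM, and the Leydig-like mean was 26.0-fold higher. Sertoli-like cells followed with 14.9 to 27.8 CPM, below the range of spermatogonia-like cells. Fibroblast-, macrophage- and lymphocyte-like cells had 0 to 17.5 CPM and overlapped one another, and the pachytene-, round-spermatid- and elongating-spermatid-like classes had 1.13 to 2.09 CPM. Of all Fads2 UMIs, 83.6% to 89.3% per library came from the Leydig-like cells. The summed Leydig markers stood at 10.8 to 26.0 CPM in the 4 later germ cell classes (early spermatocytes onward), at 22.6 to 45.5 CPM in Sertoli-like and at 30.0 to 58.9 CPM in spermatogonia-like cells, and the part of free Leydig RNA in the low Fads2 levels was not tested.

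Fads1, the desaturase that makes arachidonic acid, had the same leading class. Its Leydig-like level was 431, 469, 612 and 603 CPM in HFD 1, HFD 2, ND 1 and ND 2, and both HFD libraries lay below both ND libraries. Spermatogonia-like cells (9.31 to 32.0 CPM) and macrophage-like cells (10.5 to 27.3 CPM) came next and overlapped each other. No Fads1 UMI was found among 902944 UMIs of lymphocyte-like cells, which allows up to 3.32 CPM by counting error alone. Round-spermatid-like cells had 0.506 to 0.997 CPM. Leydig-like cells held 78.8% to 87.6% of all Fads1 UMIs.

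Fads3, a relative of the other desaturases that acts on the sphingoid base of ceramides, was sparse, with 82, 54, 84 and 81 UMIs in the libraries HFD 1, HFD 2, ND 1 and ND 2. Round-spermatid-like cells held 58.3% to 70.4% of these, at 0.960 to 1.24 CPM. Leydig-like cells had 3, 4, 9 and 9 UMIs, or 1.95 to 4.26 CPM. In fibroblast-like cells there were 0, 0, 3 and 5 UMIs, where the 0 of both HFD libraries allows up to 4.82 CPM, and the gene was not tested there. Fads3 thus differed from its neighbours on chromosome 19 in the class that held most of its UMIs.

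**Figure D1:**
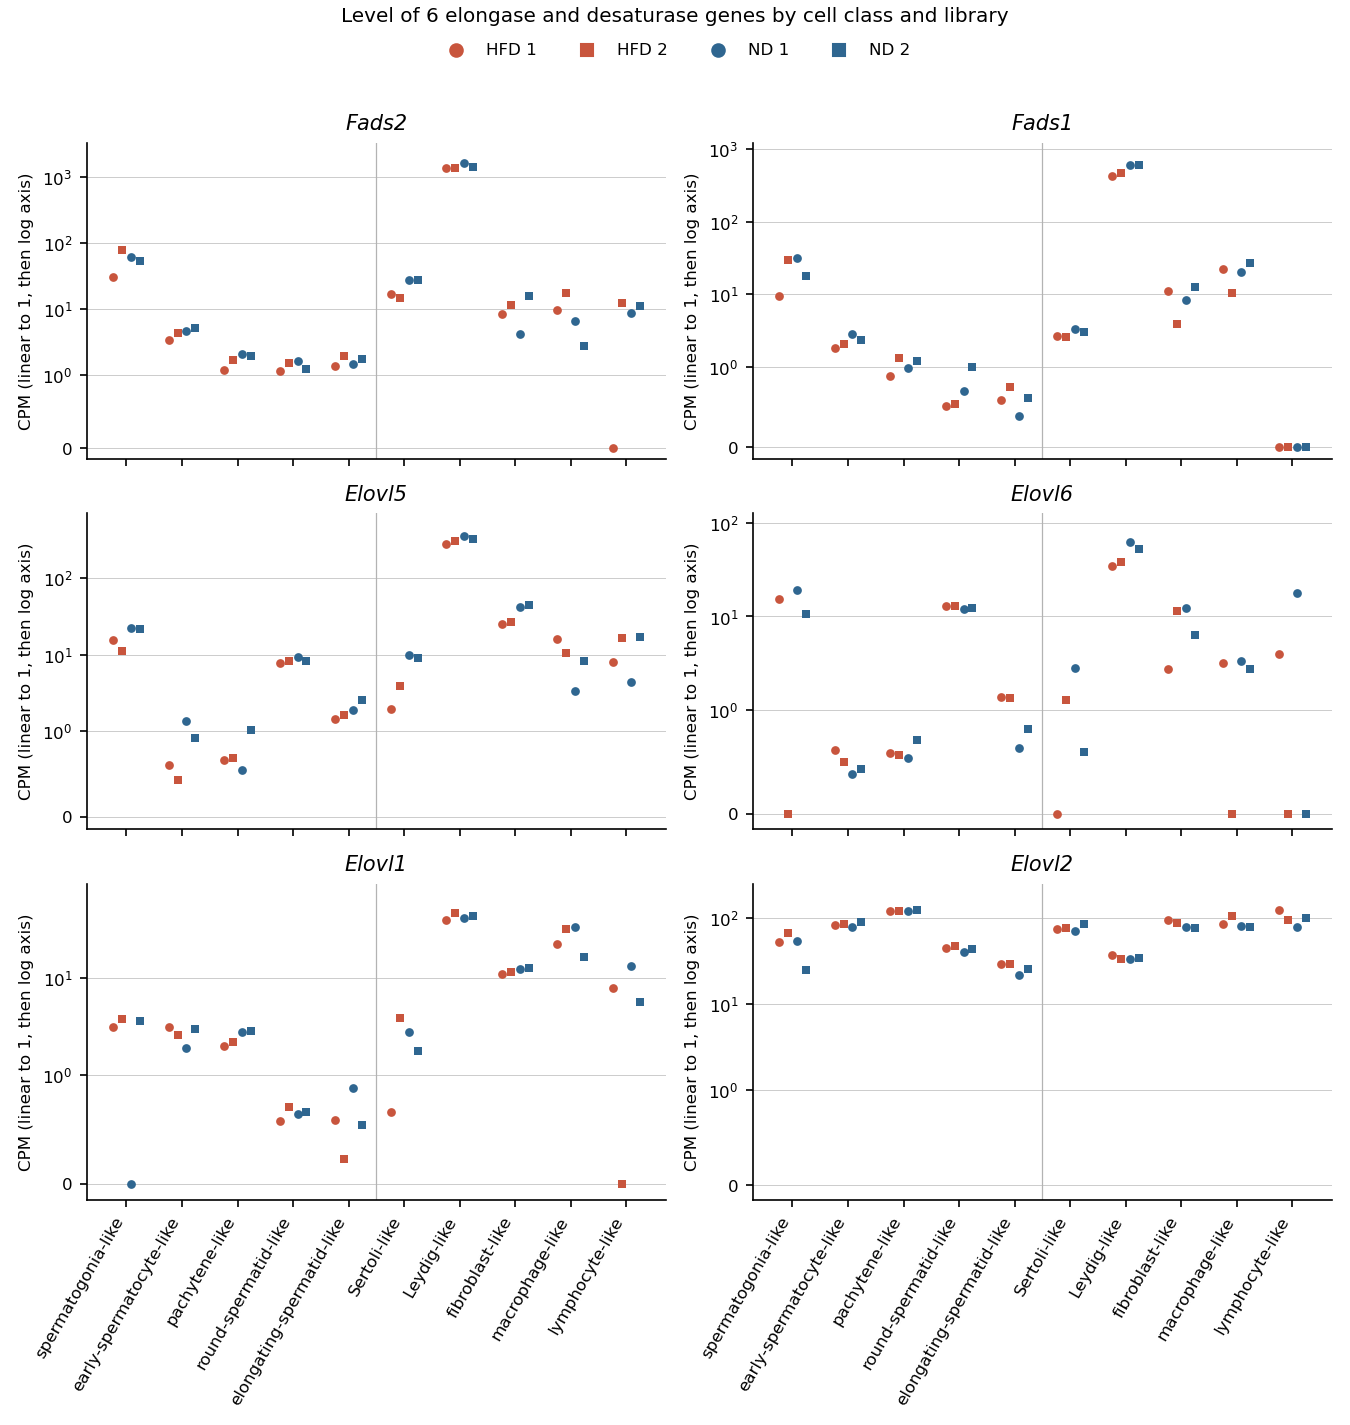
Level of Fads2, Fads1, Elovl5, Elovl6, Elovl1 and Elovl2 in 10 cell classes. Each point is 1 library (red HFD, blue ND), the y axis is CPM of the class (linear to 1, logarithmic above), and germ cell classes stand left of the grey line. Fads2, Fads1, Elovl5, Elovl6 and Elovl1 peak in Leydig-like cells, and Elovl2 is lowest in elongating-spermatid-like and Leydig-like cells.

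Elovl5, the elongase that works between the 2 desaturases, had its highest level in Leydig-like cells and a separate, lower level in round spermatids. The Leydig-like values were 277, 306, 348 and 322 CPM in HFD 1, HFD 2, ND 1 and ND 2, and the mean of 313 ± 29.5 (SD, n = 4 libraries) was 9.10-fold above that of fibroblast-like cells (24.8 to 44.3 CPM). Spermatogonia-like cells had 11.3 to 22.4 CPM. Round-spermatid-like cells had 7.82 to 9.33 CPM, above early-spermatocyte-like cells (0.427 to 1.38), pachytene-like cells (0.542 to 1.06) and elongating-spermatid-like cells (1.44 to 2.58). Because round-spermatid-like cells were so many, they held 31.7% to 36.2% of all Elovl5 UMIs, beside 45.5% to 53.6% in Leydig-like cells.

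Elovl2 had a different distribution, with its highest mean in the pachytene-like class, which was named by markers of pachytene and later spermatocytes. It stood at 122, 122, 122 and 126 CPM there in HFD 1, HFD 2, ND 1 and ND 2, and this class held 49.9% to 55.2% of the 9456 to 12082 Elovl2 UMIs of a library. Early-spermatocyte-like cells had 79.4 to 90.4 CPM, round-spermatid-like cells 40.5 to 47.1 CPM and elongating-spermatid-like cells 21.9 to 29.6 CPM. These 4 germ cell classes did not overlap one another. Leydig-like cells, the leading class of Fads2, Fads1 and Elovl5, had 33.1 to 37.6 CPM of Elovl2.

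The other somatic classes had Elovl2 levels near that of the whole testis (71.5 to 85.5 CPM). Sertoli-like cells had 70.5 to 84.4 CPM, fibroblast-like cells 75.9 to 96.4 CPM, macrophage-like cells 79.3 to 105 CPM and lymphocyte-like cells 79.3 to 123 CPM, the last overlapping the pachytene-like range. Beside this, the summed level of 11 spermatocyte markers in the same 4 classes was 0.68, 0.84, 0.74 and 0.88 times that of the whole testis, against 1.26 times in pachytene-like cells. The part of spermatocyte RNA in the somatic Elovl2 level was not tested. In Leydig-like cells those markers stood at 0.28 times the whole testis, and Elovl2 at 0.44 times. The cells of the somatic classes other than Leydig-like had a median of 1988 to 2709 UMIs, against 22873 in pachytene-like cells.

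Finer clusters of the germ cell classes differed in the level of 3 elongases, and no order of development was computed for them. Elovl2 was at 134 CPM over all libraries in pachytene-like cluster c3, 114 in c2 and 114 in c11. In the round-spermatid-like clusters c17, c14, c15 and c16 it was at 66.2, 40.7, 31.0 and 26.0 CPM. Among elongating-spermatid-like clusters it was 17.3 in c1 and 23.9 in c0, but 59.0 and 51.7 in c5 and c6, whose cells had a median of 2337 and 1976 UMIs. Elovl6 was at 0.328 and 0.447 CPM in c3 and c2 and at 18.1 and 17.3 CPM in c14 and c15. In c16, the round-spermatid-like cluster whose next best marker score was for elongating spermatids, Elovl6 was at 5.54 CPM while Elovl5 was at 8.58 CPM, near its 10.4 in c14. Elovl5 and Elovl6 were thus both higher in c14 and c15 than in c3 and c2, the reverse of Elovl2.

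**Figure D2:**
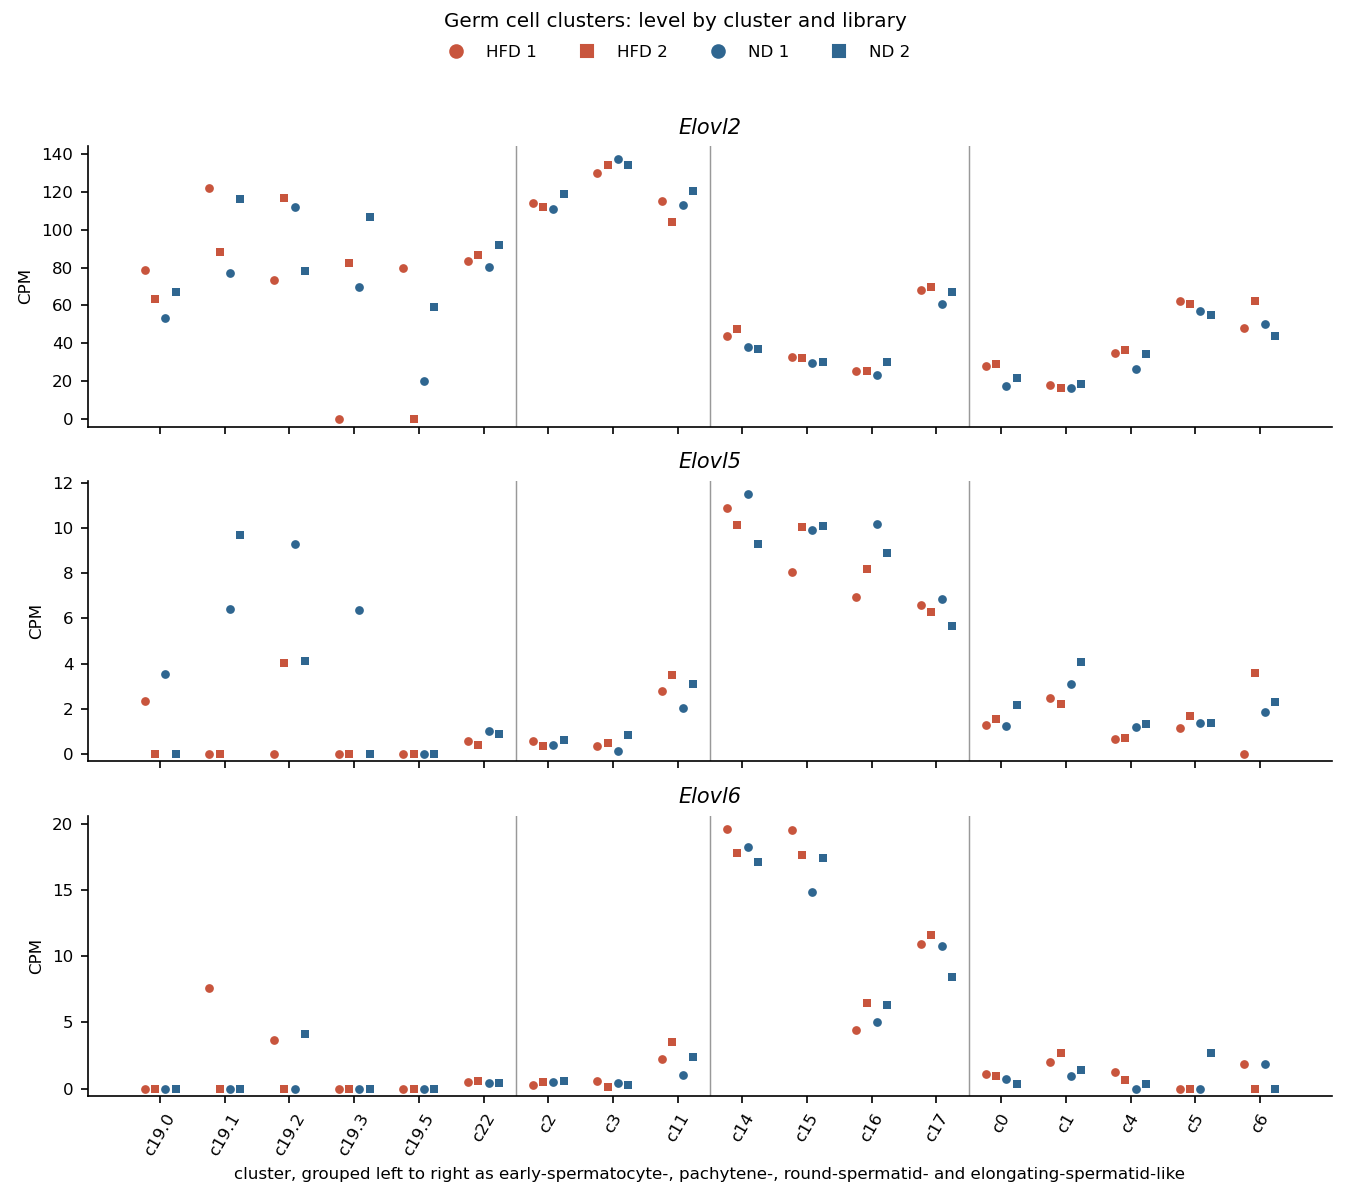
Elovl2, Elovl5 and Elovl6 in the germ cell clusters. The y axes are CPM on a linear scale, each point is 1 library of 1 cluster, and grey lines part the 4 classes. Elovl2 is highest in c3 (134 CPM), and Elovl6 in c14 and c15 (18.1 and 17.3 CPM). Clusters c19.0 to c19.5 hold few cells, and their points scatter.

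Elovl4, which builds chains beyond those of Elovl2, gave 81, 67, 52 and 47 UMIs per library, of which pachytene-like cells held 50, 32, 29 and 22. That was 0.540 to 0.919 CPM in pachytene-like cells, and no fibroblast- or macrophage-like cell had a UMI of it. Elovl7 gave 41, 51, 40 and 42 UMIs, with 13, 20, 15 and 15 in early-spermatocyte-like cells (0.993 to 1.42 CPM). Elovl3, known from skin glands and brown fat, gave 2, 1, 1 and 0 UMIs and passed the filter on low counts in no class. For these genes the depth allows no order of the small classes.

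Elovl6, the palmitate elongase, was highest in Leydig-like cells, at 34.4, 38.6, 63.4 and 53.2 CPM in HFD 1, HFD 2, ND 1 and ND 2. Round-spermatid-like cells had 12.1 to 12.9 CPM and, by their number, 70.5% to 73.5% of all Elovl6 UMIs. Pachytene-like cells had 0.542 to 0.712 CPM. Elovl1, which makes the very long saturated chains of sphingolipids, stood at 38.9, 46.2, 41.6 and 42.9 CPM in Leydig-like cells. Macrophage-like cells followed with 16.4 to 33.4 CPM and fibroblast-like cells with 11 to 12.6 CPM. Lymphocyte-like cells came next at 0 to 13.2 CPM and overlapped the fibroblast-like range. Round-spermatid-like cells, number 9 of the 10 classes by mean, had 0.575 to 0.707 CPM.

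Between the diets, the summed cells of the testis showed lower desaturase levels in HFD. Fads2 was at 16.8, 17.6, 29.5 and 26.0 CPM and Fads1 at 5.62, 6.34, 11.2 and 11.1 CPM in HFD 1, HFD 2, ND 1 and ND 2. The HFD libraries lay below the ND libraries for both genes. By edgeR's quasi-likelihood test with Benjamini-Hochberg adjustment over 25470 genes, the log2 ratio of HFD over ND was -0.69 (SE 0.0565, adjusted p = 2.28e-06) for Fads2 and -0.89 (SE 0.0655, adjusted p = 7.71e-07) for Fads1. In such sums, fewer cells of a type and less RNA per cell cannot be told apart.

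Elovl5 fell likewise, from 10.4 and 9.71 CPM in ND 1 and ND 2 to 6.45 and 6.87 CPM in HFD 1 and HFD 2 (log2 ratio -0.59, SE 0.0634, edgeR adjusted p = 2.01e-05). Elovl6 fell by 0.27 on the log2 scale (SE 0.071, edgeR adjusted p = 0.00832), from 6.45 and 6.19 to 5.31 and 5.10 CPM. Elovl2 rose, from 71.5 and 76.4 CPM in ND to 83.1 and 85.5 CPM in HFD (log2 ratio 0.20, SE 0.0438, edgeR adjusted p = 0.00317). Elovl4 had a ratio of 0.51 (SE 0.189, edgeR adjusted p = 0.0515), Fads3 of -0.35 (0.176), Elovl1 of -0.13 (0.354) and Elovl7 of 0.09 (0.780), with adjusted p in parentheses for the last 3. So 5 of the 9 tested members changed, 1 higher and 4 lower, while 34.3% of all tested genes changed, 15.3% higher and 18.9% lower. Elovl3 was not tested. Without HFD 2, Elovl6 did not pass (ratio -0.23, edgeR adjusted p = 0.085), and 4 members did.

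The cell classes took different shares of each library. Leydig-like cells gave 1.06% and 1.06% of the UMIs in HFD 1 and HFD 2 and 1.6% and 1.6% in ND 1 and ND 2, and the Leydig markers stood at 196, 194, 360 and 306 CPM of the whole testis. Pachytene-like cells gave 37.4% and 38.7% in HFD against 29.3% and 30.3% in ND, and round-spermatid-like cells 29.9% and 29.1% against 37.8% and 37.3%. Without the Leydig-like cells, Fads2 was at 2.40, 2.91, 3.19 and 3.12 CPM (log2 ratio -0.26, edgeR adjusted p = 0.073) and Fads1 at 1.07, 1.36, 1.41 and 1.51 CPM (-0.28, adjusted p = 0.14). Elovl6 was then at 5.0, 4.74, 5.53 and 5.43 CPM (-0.18, adjusted p = 0.095). Elovl5 stayed lower in HFD, at 3.55, 3.66, 4.88 and 4.65 CPM (-0.41, edgeR adjusted p = 0.0015), and Elovl2 higher (0.18, adjusted p = 0.0072), so 2 members passed where 29.7% of all tested genes did.

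**Figure D3:**
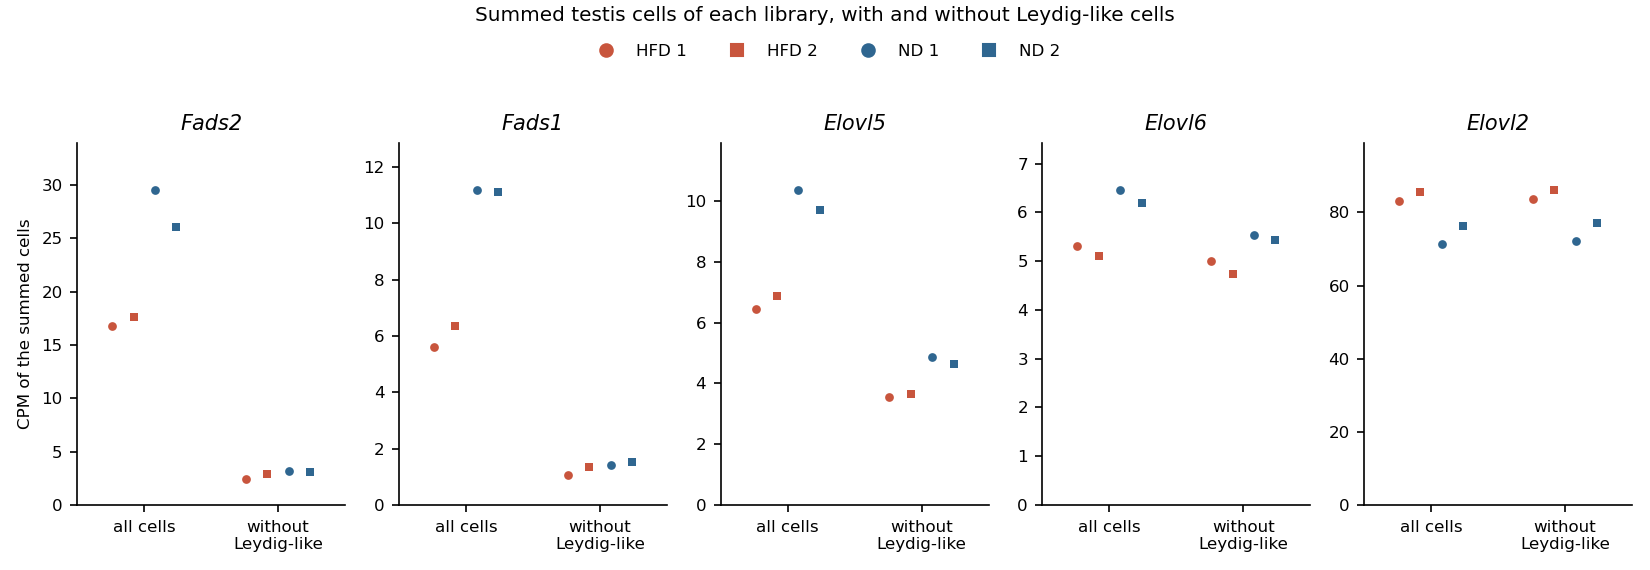
Fads2, Fads1, Elovl5, Elovl6 and Elovl2 in all summed cells of each library and in the sum without Leydig-like cells. The y axes are CPM on a linear scale from 0, and each point is 1 library (red HFD, blue ND). Fads2 lies between 16.8 and 29.5 CPM with all cells and between 2.40 and 3.19 CPM without Leydig-like cells, while Elovl2 is higher in HFD in both sums.

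A level for the whole testis can be put together from the class levels of one diet and the class shares of the other, as a description with no test. For Elovl2, the HFD class levels with ND shares gave 76.4 CPM and the ND class levels with HFD shares 82.2 CPM, against 84.3 in HFD and 73.9 in ND. For Elovl6 these exchanges gave 6.28 and 5.20 CPM, against 5.21 in HFD and 6.32 in ND. For Fads2 they gave 24.4 and 19.7 CPM, between 17.2 in HFD and 27.8 in ND. For Elovl5 they gave 8.71 and 7.70 CPM, between 6.66 and 10.03, and for Fads1 8.31 and 7.97 CPM, between 5.98 and 11.1. In both exchanges, Elovl2, Elovl6, Fads2 and Elovl5 thus lay nearer to the diet that gave the shares than to the diet that gave the levels, and Fads1 lay nearer to the HFD level.

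Within Leydig-like cells, Fads1 and Elovl6 fell in HFD and the other tested members did not pass. Fads1 was at 450 ± 27.0 CPM in HFD and 607 ± 6.51 in ND (SD, n = 2 libraries each), a log2 ratio of -0.47 (with SE 0.0846 and edgeR adjusted p = 0.000285 over 11633 genes). Elovl6 was at 36.5 ± 3.00 against 58.3 ± 7.17 CPM, a log2 ratio of -0.72 (with SE 0.171 and edgeR adjusted p = 0.00846). For neither gene did the diets overlap. That made 2 of 6 tested members lower and 0 higher, against 2.18% of all tested genes lower and 4.23% changed in either direction.

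Fads2 in Leydig-like cells was lower in both HFD libraries (1359 and 1383 CPM) than in both ND libraries (1650 and 1440), with a log2 ratio of -0.21 (with SE 0.0819 and edgeR adjusted p = 0.144). Elovl5 had a ratio of -0.24 (SE 0.0921, edgeR adjusted p = 0.142), and the values of the diets did not overlap. With 2 libraries per diet, such separation often arises without a diet effect, and its share over all genes is not given here. Elovl1 (-0.03, SE 0.174) and Elovl2 (0.04, SE 0.189) overlapped between the diets. The median ratio of the 6 tested members was -0.23, beside -0.01 over all genes tested in the class.

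The Leydig-like calls had limits. Elovl6 did not pass with doublets kept (log2 ratio -0.62, edgeR adjusted p = 0.132), without HFD 1 (log2 ratio -0.62, edgeR adjusted p = 0.13) or without ND 1 (-0.57, adjusted p = 0.18), while Fads1 passed with each library left out in turn. DESeq2 called Fads1 (adjusted p = 0.00275) and gave no adjusted p for Elovl6. Fads1 and Elovl6 also did not pass when the unnamed cluster c20 was joined to the class (-0.64 with adjusted p = 0.095 and -0.86 with adjusted p = 0.077), an alternative chosen after the data had been seen. That cluster of 131, 54, 48 and 103 cells in HFD 1, HFD 2, ND 1 and ND 2 was led by the nuclear RNAs Malat1, Neat1 and Meg3 and had all 7 Leydig markers. Spermatocyte markers stood at 4193 and 3796 CPM in the HFD and 2854 and 3109 CPM in the ND Leydig-like cells, and the Leydig markers at 16276, 16281, 21149 and 17522 CPM. Fibroblast markers, the next best score of the cluster, stood at 109 and 127 CPM in the HFD and 169 and 195 CPM in the ND Leydig-like cells, and spermatogonia markers at 145 and 148 against 183 and 162 CPM. The part of any of these lists in the calls was not tested.

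**Figure D4:**
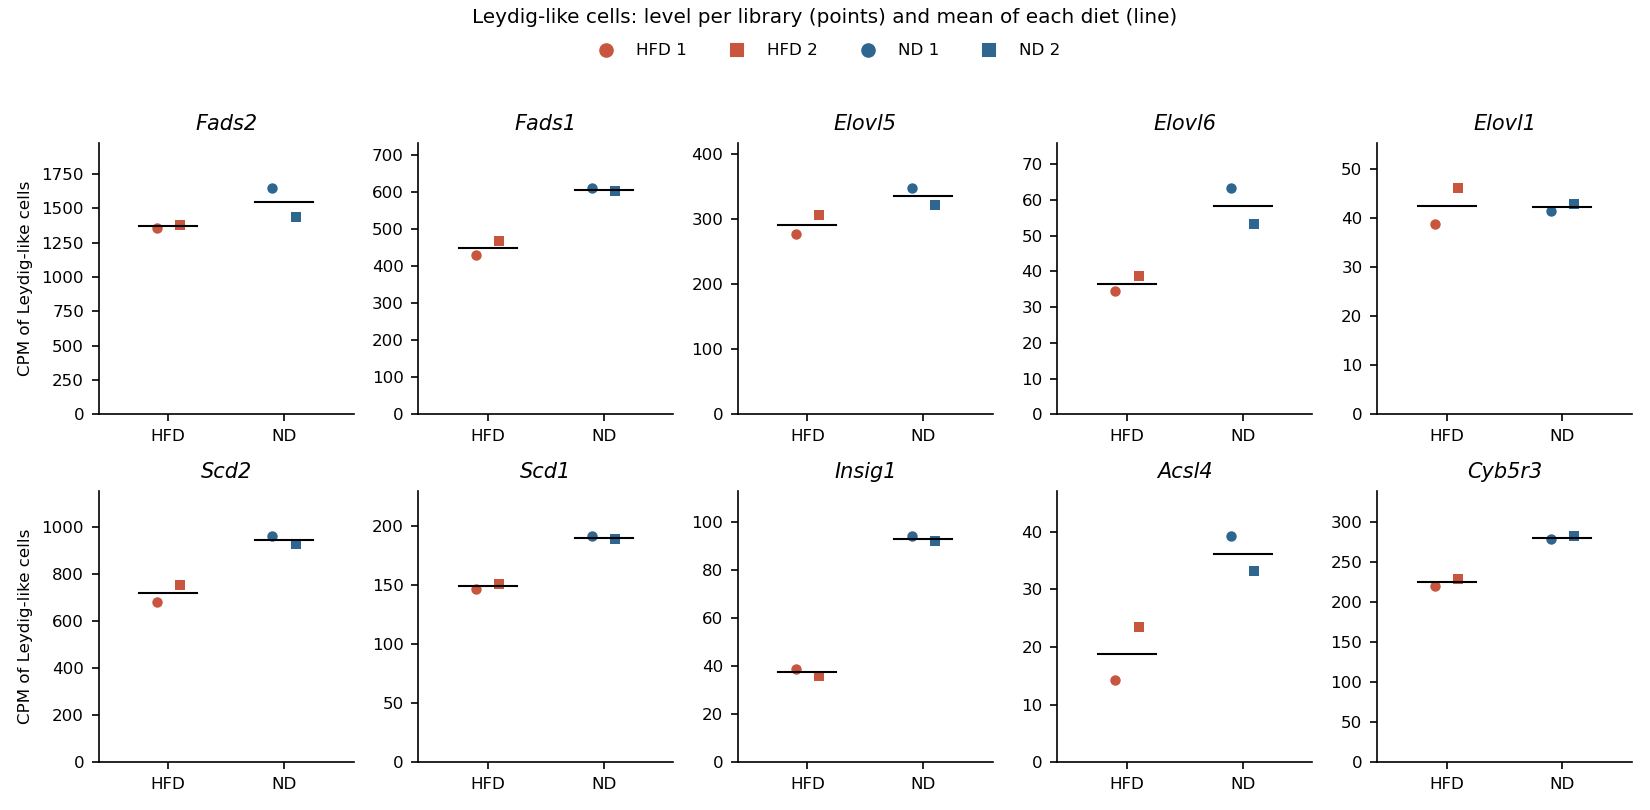
Leydig-like cells, level per library of 5 members (upper panels) and of 5 other genes of fatty acid and sterol metabolism that fell (lower panels). The y axes are CPM of Leydig-like cells on a linear scale from 0, points are libraries and lines the mean of 2 libraries. The lower 5 were picked from the genes called lower, so their lower HFD points follow from that choice. Of the upper panels, that of Elovl1 overlaps between the diets. Elovl2, which also overlaps in these cells, is not drawn. Insig1 shows means of 37.4 and 93 CPM.

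Over the classes in which they were tested, Leydig-like included, Fads2 had a log2 ratio below 0 in 6 of 6 and Elovl5 in 7 of 7, but neither passed in any, and these classes come from the same 4 libraries, so they are not independent. In some of them, Sertoli- and fibroblast-like cells included, Elovl5 passed the filter on low counts only through the ND libraries. The filter itself favoured a ratio below 0 there, so the count of signs is no support for a change. The sign of Fads2 in elongating- and round-spermatid-like cells and of Elovl5 in pachytene-like cells changed with 1 library left out, and that of Fads2 in elongating-spermatid-like cells also with doublets kept. In macrophage-like cells, where neither was tested, HFD lay above ND without overlap, with 5, 3, 1 and 3 UMIs of Elovl5 (16.0, 10.5, 3.34 and 8.20 CPM) and 3, 5, 2 and 1 UMIs of Fads2 (9.61, 17.5, 6.68 and 2.73 CPM) in HFD 1, HFD 2, ND 1 and ND 2. These counts are few, and 2 libraries per diet often separate without a diet effect. The summed Leydig markers in macrophage-like cells stood at 320, 136, 66.8 and 49.2 CPM in the same order. Their part in the Elovl5 and Fads2 levels there was not tested. In lymphocyte-like cells, with 10 UMIs of Elovl5 in all, the diets overlapped. In the Sertoli-like cells of HFD 1, HFD 2, ND 1 and ND 2, Elovl5 had 3, 6, 18 and 15 UMIs and Fads2 26, 23, 50 and 46, without overlap of the diets. Their log2 ratios were -1.66 (SE 0.486, edgeR adjusted p = 0.239) and -0.77 (SE 0.262, edgeR adjusted p = 0.363). None of the 3 members tested there was called by edgeR or DESeq2, where edgeR called 0.0875% of all genes by adjusted p. An unadjusted edgeR p under 0.05 was found for 2 members. The share of all genes at that unadjusted p is not given here, so this count shows no excess. In fibroblast-like cells Elovl5 was at 24.8 and 27.0 CPM in HFD and 41.5 and 44.3 CPM in ND, from 7 to 14 UMIs each, and did not pass (ratio -0.74, edgeR adjusted p = 0.662).

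Germ cell classes showed few differences. In elongating-spermatid-like cells Elovl2 was at 29.2, 29.6, 21.9 and 25.4 CPM in HFD 1, HFD 2, ND 1 and ND 2, and rose by a log2 ratio of 0.26 (with SE 0.0862 and edgeR adjusted p = 0.0453). It was the 1 called among 4 members tested there, beside 11.1% of all genes, of which 5.41% were higher. The call was lost without HFD 1 (ratio 0.25, edgeR adjusted p = 0.195), without HFD 2 (0.27, adjusted p = 0.184), without ND 1 (0.15, adjusted p = 0.391) and with doublets kept (0.10, adjusted p = 0.771), and DESeq2 gave no adjusted p for it. Elovl6 in the same cells had 21, 18, 10 and 12 UMIs (ratio 0.85, edgeR adjusted p = 0.161, and -0.04 with doublets kept). In these cells early spermatocyte markers stood at 300 and 322 CPM in the HFD and 266 and 268 CPM in the ND libraries, and pachytene markers at 7495 and 7573 against 7026 and 7182 CPM. Round spermatid markers were at 2687 and 2657 against 2874 and 2819 CPM, and elongating spermatid markers at 173101 and 166840 against 176545 and 177306 CPM. Their part in the Elovl2 call was not tested.

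In pachytene-like cells, the class with most Elovl2, its ratio was -0.01 (SE 0.0349, edgeR adjusted p = 0.952), and edgeR called none of 8 tested members there, with 2 at an unadjusted p under 0.05, beside 7.46% of all genes. The lowest adjusted p there were those of Elovl1 (2.0 and 2.22 CPM in HFD, 2.76 and 2.82 in ND, ratio -0.39, edgeR adjusted p = 0.123) and Fads2 (ratio -0.48, edgeR adjusted p = 0.132). In round-spermatid-like cells Elovl6 was at 12.9, 12.8, 12.1 and 12.2 CPM, with a ratio of 0.06 (SE 0.0612, edgeR adjusted p = 0.684). Elovl5 had a ratio of -0.16 (edgeR adjusted p = 0.401) and Elovl2 of 0.11 (edgeR adjusted p = 0.261), and edgeR called 0 of 7 members, with 2 at an unadjusted p under 0.05, beside 0.712% of all genes. None of 6 members passed edgeR in early-spermatocyte-like cells, with 1 at an unadjusted p under 0.05, where 1.45% of all genes passed. In fibroblast-like (2 tested, 0% of all genes called), macrophage-like (1 tested, 1.71%) and lymphocyte-like cells (1 tested, 0.442%), edgeR called 0 members, and 0 had an unadjusted p under 0.05. DESeq2 called 0 members in the pachytene-, round-spermatid-, early-spermatocyte-, fibroblast-, macrophage- and lymphocyte-like classes. Over all compartments it gave no adjusted p for 24 member values. The share of all genes at an unadjusted p under 0.05 is not given here for any class, so the member counts at that p show no excess. Leaving out 1 library made a call of Fads2 in pachytene-like cells (without HFD 2), of Fads1 in round-spermatid-like cells (without ND 1) and of Elovl2 in round-spermatid-like cells (without ND 2), with log2 ratios of -0.73, -0.97 and 0.17.

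**Figure D5:**
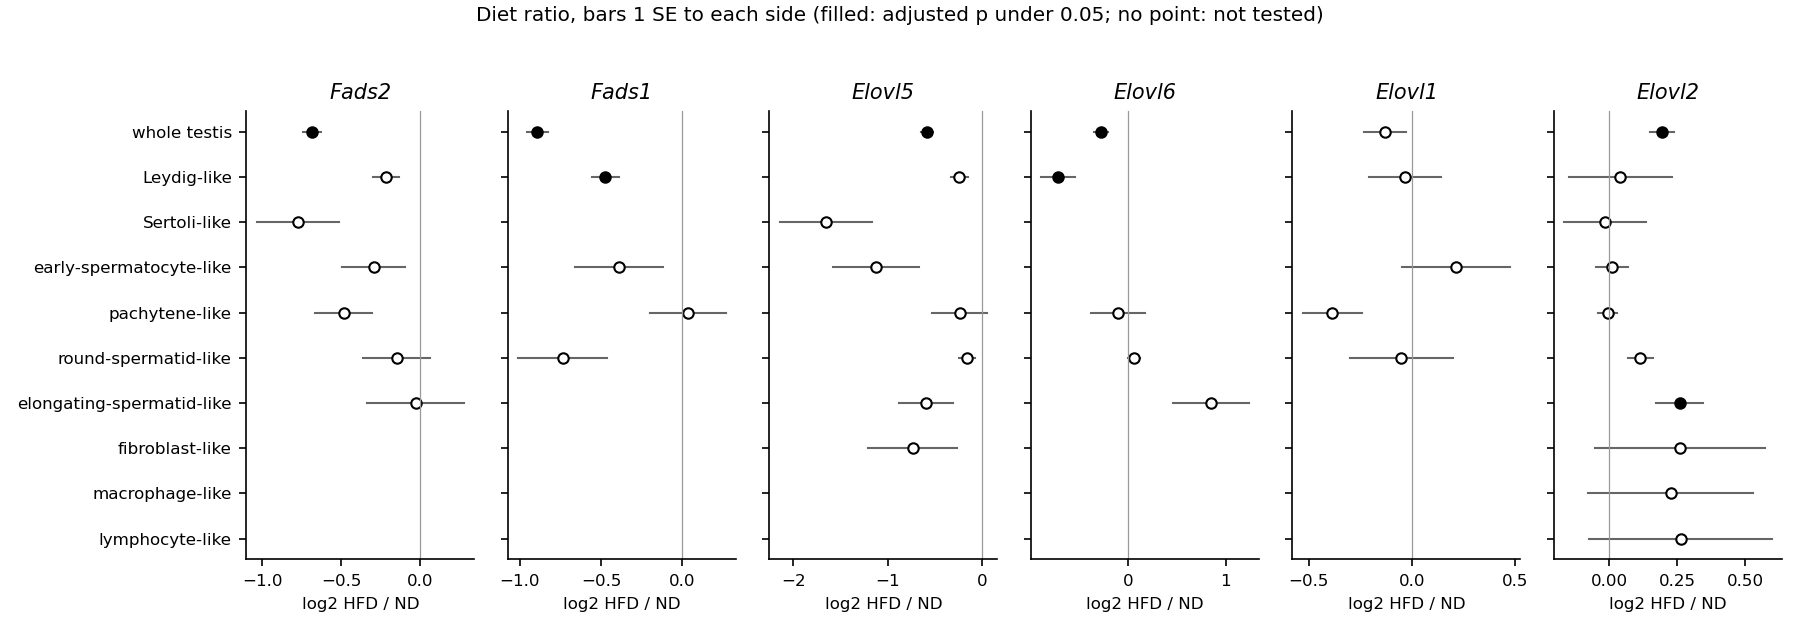
Log2 ratios of HFD over ND for 6 members, by compartment. Points are edgeR estimates, bars reach 1 SE to each side, filled points have an adjusted p under 0.05, and a missing point means that the gene was not tested. Fads2 and Elovl5 lie left of 0 in every compartment tested, and filled points within classes are Fads1 and Elovl6 in Leydig-like and Elovl2 in elongating-spermatid-like cells. In Sertoli- and fibroblast-like cells Elovl5 passed the filter on low counts only through the ND libraries, which favours a ratio below 0.

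A difference of diet ratios between a pair of classes was tested for every member tested in both, as an interaction in 1 edgeR fit, in which both sums of a library enter as separate samples. Of 91 such comparisons over 36 pairs of classes, 1 passed. Over all genes of each fit, whether or not they were tested in both classes, 0.186% of the comparisons passed. In the fit of Leydig-like and round-spermatid-like cells, this share was 0.791%. Both shares thus come from a wider set of genes than the 91 and are not a like background. The Elovl6 ratio in Leydig-like cells was 0.74 lower than in round-spermatid-like cells on the log2 scale (difference -0.74, SE 0.18, edgeR adjusted p = 0.027). It passed without ND 2 (-0.91, edgeR adjusted p = 0.00857) but not without HFD 1 (-0.63, adjusted p = 0.646), HFD 2 (-0.87, adjusted p = 0.29) or ND 1 (-0.58, adjusted p = 0.286). For Fads1, Fads2, Elovl5 and Elovl2 no pair of classes passed, which does not show that their ratios were alike.

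Partners of these enzymes were read from 8 lists of 59 genes: elongation cycle partners, electron supply to desaturases, stearoyl-CoA and related desaturases, acyl-CoA synthetases, acyltransferases, peroxisomal shortening, ceramide synthesis and transcription control. In Leydig-like cells 47 were tested, 6 fell and 0 rose, beside 2.18% of all genes lower and 4.23% called in either direction. Insig1, which holds the sterol-sensing SREBP complex in the endoplasmic reticulum, was at 37.4 ± 2.17 CPM in HFD and 93 ± 1.51 in ND (SD, n = 2 libraries each), a log2 ratio of -1.35 (SE 0.151). The stearoyl-CoA desaturases Scd2 (719 ± 49.1 against 947 ± 23.2 CPM, ratio -0.44) and Scd1 (149 ± 3.12 against 190 ± 1.73 CPM, ratio -0.39) fell as well, as 2 of 3 tested genes of their list. Acsl4, an acyl-CoA synthetase that prefers arachidonic acid (18.9 ± 6.49 against 36.2 ± 4.31 CPM, ratio -0.99), and the cytochrome b5 reductase Cyb5r3 (ratio -0.36) were also among the 6. Insig1 passed in every edgeR setting tried, with log2 ratios from -1.50 to -1.16. DESeq2 called 1 of the 6, Scd2, and gave no adjusted p for Insig1 and Acsl4. It left 30 of the 47 tested genes without an adjusted p. With edgeR, Scd2 also passed with each library left out in turn. Leaving out HFD 1 ended the calls of Scd1, Acsl4 and Cyb5r3 in Leydig-like cells, with edgeR adjusted p from 0.205 to 0.253, and leaving out ND 1 ended the same 3 (0.0782 to 0.134). Scd1 was also lost without HFD 2 (edgeR adjusted p = 0.0511), and Scd1 and Cyb5r3 without ND 2 (0.0529 and 0.0633). Keeping doublets left Insig1 as the only call (edgeR adjusted p = 1.45e-05). Joining the unnamed cluster c20 to the class also left Insig1 as the only call of the 6, and the other 5, Scd2 among them (edgeR adjusted p = 0.113), had adjusted p from 0.0642 to 0.163.

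The elongation cycle itself is shared by all Elovl enzymes. None of its 5 tested partners was called by edgeR or DESeq2 in Leydig-like cells, with 0 at an unadjusted edgeR p under 0.05 and 4 ratios below 0, at a median of -0.08. Its most abundant, the enoyl reductase Tecr, was at 536 ± 24.1 and 534 ± 20.8 CPM (ratio -0.04, edgeR adjusted p = 0.886). None of 5 acyltransferases passed in edgeR (1 had an unadjusted p under 0.05), with Agpat3 at 388 ± 4.93 and 378 ± 12.1 CPM, nor did any of 6 ceramide genes (0 at that p), and DESeq2 called 0 of either list. DESeq2 gave no adjusted p for 30 of the 47 partner genes tested in these cells, so its 0 calls say little about these lists. The share of all genes at that unadjusted p is not given here. Cyb5a, the electron donor of the desaturases, was at 383 ± 8.05 and 434 ± 4.61 CPM (ratio -0.22, edgeR adjusted p = 0.153). Of the transcription control list 1 of 10 tested genes passed, which was Insig1.

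In elongating-spermatid-like cells 41 genes of the lists were tested, 2 rose and 2 fell, where 11.1% of all genes were called, so the share of the lists was near that of all genes. Tecr fell (28.9 ± 1.02 against 33.5 ± 1.23 CPM, ratio -0.27), as did the keto-reductase Hsd17b12 (ratio -1.24), and Cers3, which makes ceramides with very long polyunsaturated chains in germ cells, rose (12.3 ± 0.996 against 9.0 ± 0.0247 CPM, ratio 0.39), as did the acyl-CoA synthetase Acsl3 (ratio 0.51). None of these 4 was called with doublets kept (edgeR adjusted p from 0.29 to 0.714) or by DESeq2, which gave an adjusted p for Tecr only (0.0938). At a clustering resolution of 2, Tecr was still called (edgeR adjusted p = 0.0309). Acsl3, Cers3 and Hsd17b12 were not (0.126, 0.104 and 0.217). Of the 4, 1 was still called without HFD 1, 0 without HFD 2, 0 without ND 1 and 2 without ND 2. In pachytene-like cells 46 were tested, 2 rose and 2 fell, near the 7.46% of all genes, with Cyb5a (ratio 0.17) and Acsl3 (0.17) higher and Acsl1 (-0.43) among the lower. None of these 4 was called with doublets kept or at a clustering resolution of 2. Cyb5a was not called without HFD 1 (edgeR adjusted p = 0.151), nor Acsl3 without HFD 1 (0.0674) or HFD 2 (0.247), while Acsl1 was called with each library left out in turn. Without HFD 1, 1 of the 4 was still called, 2 without HFD 2, 3 without ND 1 and 4 without ND 2. In the 6 other tested classes, edgeR called 0 of 180 values for genes of the lists. Of these values, 20 had an unadjusted p under 0.05, but the share of all genes at that p is not given here, so this count shows no excess. DESeq2 called 0, though it gave no adjusted p for some of them, such as 32 of 49 in round-spermatid-like cells. In the whole testis 56 were tested, 7 rose and 23 fell (30 in all, beside 34.3% of all genes, 15.3% higher and 18.9% lower), among them 4 of 4 tested stearoyl-CoA and related desaturases, with Scd2 at 9.15 ± 0.667 and 17.1 ± 0.0673 CPM. Without HFD 2 the count was 19 in place of 30. Without the Leydig-like cells 21 were called, 18 of them among the 30.

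Some genes followed the members over the 40 sums of 10 classes and 4 libraries, by Pearson correlation of log2(CPM + 1) among 12168 genes. For Fads2 the closest were the sterol demethylase gene Msmo1 (r = 0.928), Amacr (0.910) and Suclg2 (0.905). Fads1 was closest to Lifr (0.945), Elovl5 to the progesterone receptor membrane component Pgrmc1 (0.926), Elovl1 to Idh2 (0.936), Elovl6 to Atf5 (0.810) and Elovl2 to Cfap97 (0.964). Fads1 and Fads2 correlated with r = 0.883, Fads2 and Elovl5 with 0.818, and Elovl2 with Fads2 at -0.318. The sums share libraries and classes, so these values describe the class pattern only.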

How the data were processed

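Testis cells of 2 HFD and 2 ND libraries were profiled with a droplet kit that reads the 3′ end of transcripts. The authors deposited raw UMI count matrices with no normalization, written by 10x matrix software version 3.0.2 per the file headers, on genome build mm10 per the submitters' processing notes. The aligner is not given in the sources used here, and dense text copies of the matrices were not used. All 55450 gene IDs had a match in GENCODE M21.

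Barcodes under 200 genes or above 20% mitochondrial UMIs (13 to 42 per library) were dropped, and Scrublet (expected rate 0.1) removed 421 to 853 doublets. The rest were clustered with Leiden at resolution 1 (scanpy 1.11.5, igraph 0.11.9, Python 3.11.15) on 2000 variable genes and 30 components, without the 10 members. Clusters were named from 12 marker lists by a scoring rule set after the clusters had been seen. The markers and the names thus rest on these same cells.

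UMIs were summed per library and class. Classes with at least 50 cells in every library were tested with edgeR 4.0.16 (R 4.3.3; filterByExpr, TMM scaling, quasi-likelihood test) over all genes, with Benjamini-Hochberg adjustment and a threshold of 0.05. CPM are UMI counts scaled to the total of the class. Total depth sets the precision: a count of 0 allows up to 3 UMIs at 95% confidence, for counting error only. On simulated data the whole-testis fit (25470 genes) called 63% of genes changed by 0.5 and 84% of those changed by 1 on the log2 scale, and the Leydig-like fit (11633 genes) 22% and 72%. Alternatives were DESeq2 1.42.0, its size factors, no filter on low counts, a mitochondrial limit of 10%, doublets kept, resolution 2, the sum without Leydig-like cells, a replicate block and each library left out.

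Named were all 10 members. Of each partner list, called genes were named, up to 3 by size of the ratio with a mean of at least 20 CPM, together with the most abundant gene. For members with at least 20 CPM in a class, genes were ranked by correlation. Hsd17b12 and Acsl3 in elongating-spermatid-like cells and Acsl1 in pachytene-like cells, called at lower levels, were added after their values were seen. Some genes of the lists are counted but not reported here by name. The members and lists were chosen with earlier results of these data known.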

Additional observations from a re-analysis of the deposited data

Results flagged for a closer look

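The diet ratio of Elovl6 differed between a pair of cell classes when the difference itself was tested. In Leydig-like cells Elovl6 stood at 34.4, 38.6, 63.4 and 53.2 CPM in HFD 1, HFD 2, ND 1 and ND 2, and in round-spermatid-like cells at 12.9, 12.8, 12.1 and 12.2 CPM. The log2 ratio of HFD over ND in Leydig-like cells minus that in round-spermatid-like cells was -0.743 (SE 0.18, edgeR adjusted p = 0.027), the 1 passing comparison of 91. With the library as a block, chosen after the data had been seen, it was -0.743 (edgeR adjusted p = 0.0204). Leaving out 1 library gave differences from -0.914 to -0.578, and the difference passed only without ND 2. What lies behind the difference was not tested.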

How the results depend on the processing

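The count of members called within classes (3) was 1 with DESeq2, 1 with doublets kept and 1 with the nuclear-RNA cluster c20 joined to the Leydig-like cells, and 1 to 5 with 1 library left out (1 without HFD 1, 5 without ND 2). The count in the whole testis (5) was 2 without Leydig-like cells and 4 to 5 with 1 library left out. Partner genes called in the whole testis (30) numbered 19 to 28 with 1 library left out (19 without HFD 2). Partner genes called within classes (14) numbered 3 with DESeq2, 1 with doublets kept, 9 at resolution 2, 9 with cluster c20 joined and 4 to 12 with 1 library left out (4 without HFD 1, 8 without HFD 2). The cause of these changes was not tested. DESeq2 gave no adjusted p for some values that edgeR called, so its lower counts are not all lost calls. Leaving out a library leaves 1 in its diet, which is assumed to vary like the others.

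The labels give both diets the numbers 1 and 2, and nothing shows that these pair the libraries: deviations of same-numbered libraries correlated at -0.095 to 0.138 across genes. With the replicate block, 1 member passed within classes and 6 in the whole testis, and 12 and 33 partner genes. Fads1 (edgeR adjusted p = 0.0709) and Elovl6 (0.127) in Leydig-like cells did not pass, nor did Scd2 (0.0888) there.

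No called log2 ratio changed sign, and 33 signs of values that had not passed did. With doublets kept the log2 ratio was 0.00514 for Elovl1 and -0.117 for Elovl2 in Leydig-like cells, -0.0355 for Elovl6 and 0.0951 for Fads2 in elongating-spermatid-like cells, and -0.00108 for Fads1 in pachytene-like cells. At resolution 2 it was -0.215 for Elovl1 and -0.0332 for Elovl2 in early-spermatocyte-like cells. Elovl2 in pachytene-like cells gave 0.00036 with DESeq2's size factors, 0.000371 with DESeq2 and 0.000141 with no filter. With 1 library left out, the ratios ran from -0.108 to 0.28 for Elovl7 in the whole testis, from -0.172 to 0.0973 for Elovl1 and -0.0319 to 0.1003 for Elovl2 in Leydig-like cells, and from -0.117 to 0.106 for Elovl2 in Sertoli-like cells. In early-spermatocyte-like cells they ran from -0.0596 to 0.58 (Elovl1), -0.0782 to 0.11 (Elovl2) and -0.134 to 0.371 (Elovl7), and in elongating-spermatid-like cells from -0.263 to 0.195 (Fads2). In pachytene-like cells they ran from -0.0248 to 0.0137 (Elovl2), -0.0684 to 0.543 (Elovl4), -0.628 to 0.326 (Elovl5), -0.276 to 0.111 (Elovl6), -0.136 to 0.00868 (Elovl7) and -0.266 to 0.287 (Fads1). In round-spermatid-like cells they ran from -0.191 to 0.0984 (Elovl1), -0.358 to 0.083 (Fads2) and -0.0963 to 0.283 (Fads3).

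Fads2 in Leydig-like cells passed without ND 2 (-0.32, edgeR adjusted p = 0.0236) and with no filter (-0.24, edgeR adjusted p = 0.0291). DESeq2 gave no adjusted p for 24 member values. At resolution 2 no cluster was named lymphocyte-like, so that class was not tested there. Fads3, Elovl4, Elovl7 and Elovl3 had at most 84 UMIs in a library, so depth limits what their ratios can show.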

Other observations

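Some clusters that carry no class name held members at levels that are given here as values. Cluster c20, led by nuclear RNAs, had Fads2 at 125, 260, 341 and 254 CPM, Fads1 at 23.1, 90.3, 123 and 76.7 CPM and Elovl5 at 28.0, 50.8, 106 and 80.7 CPM in HFD 1, HFD 2, ND 1 and ND 2. For Elovl5 the diets did not overlap there, which often happens with 2 libraries per diet without a diet effect. These Fads2 levels lie below every Leydig-like value and above every value of the other named classes. Cluster c26, of 42 cells over all libraries, scored best for endothelial markers, and its Elovl5 level was 45.0 to 56.3 CPM per library, from 7 UMIs in all. The unnamed cluster c7, of 5393 cells with a median of 3223 UMIs, had Elovl2 at 138, 141, 125 and 124 CPM. Its leading genes were mt-Rnr2 and mt-Rnr1, and its best marker score (0.56) was for pachytene and later spermatocytes.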
